A study of Mus musculus with 36 samples.

Results

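The insulin-like growth factor (IGF) axis was followed through 36 RNA-seq libraries of mouse heart in 16 groups, as the ligand gene Igf1, the receptor genes Igf1r and Igf2r, and the binding protein genes Igfbp2, Igfbp3, Igfbp4, Igfbp5 and Igfbp6. The members were the rows of the deposited expression table whose symbol stood on a list of 9 genes of this axis. Of these, 8 were found, each with 1 row, among 36128 gene rows under 32750 symbols, and Igfbp7 is not analysed here. Values are FPKM (fragments scaled to transcript length and to the mapped total of a library), so levels can be set side by side between genes. All mice had the CD-1 background, and no group carried an engineered allele or a drug according to the labels. Isolated cardiomyocytes, obtained over Miltenyi columns, gave 3 libraries each at 7 days after heart resection, at 7 days after sham surgery, at postnatal day 4 (P4) and at P0. Adult cardiomyocytes that had been dissociated and explanted gave 2 libraries each at 0, 24, 48 and 72 h. Whole ventricular myocardium gave 2 libraries each at P0, P4, P7 and in adults, at 1 day after resection and after sham surgery, and at 7 days after resection and after sham surgery. The age at surgery, the age of the adults and any pooling of animals are not given in the sources used here.

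IGF-I and IGF-II are secreted growth ligands that activate the tyrosine kinase receptor IGF1R, which passes the signal through IRS adaptors to PI3K, AKT and mTOR. IGF2R, the cation-independent mannose 6-phosphate receptor, has no kinase: it takes up IGF-II for degradation and carries newly made enzymes to lysosomes. The IGF binding proteins hold the ligands outside the cell, where they can withhold them from the receptor or present them to it. In the heart the axis is known for its part in cardiomyocyte proliferation before birth and in growth afterwards.

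The members lay on 6 mouse chromosomes (build mm9, coordinates of the deposited table). Igfbp2 (chr1:72871076-72899048) and Igfbp5 (chr1:72904505-72921458) were neighbours, with 5456 bases between the end of the Igfbp2 locus and the start of the Igfbp5 locus. Igf1 spanned chr10:87321009-87399792, Igf1r chr7:75097712-75371484 and Igf2r chr17:12875271-12962530. Igfbp3 (chr11:7106088-7113926) and Igfbp4 (chr11:98902557-98913969) shared chromosome 11 without being neighbours, and Igfbp6 lay at chr15:101974792-101979942. Sequences of the 250 bases before the annotated start were taken from RefSeq (GRCm38.p6, of the reference strain and not of CD-1 mice). They are shown for the receptor genes, which moved together with age, and for the binding protein genes on which the results turn. Capitals mark matches, on either strand, to a TATA-type word (written TATAAA, with TATATA as the second form and TTTAAA as the third), the GC box GGGCGG, the E-box CACGTG or the AP-1 word TGACTCA.
Igf1r (chr7:67952007-67952256, plus strand): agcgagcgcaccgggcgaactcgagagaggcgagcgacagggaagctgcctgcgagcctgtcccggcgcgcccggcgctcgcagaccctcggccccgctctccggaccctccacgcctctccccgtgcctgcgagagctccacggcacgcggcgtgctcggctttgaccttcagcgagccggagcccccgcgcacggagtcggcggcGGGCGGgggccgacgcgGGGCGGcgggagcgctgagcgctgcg
Igf2r (chr17:12769707-12769956, minus strand): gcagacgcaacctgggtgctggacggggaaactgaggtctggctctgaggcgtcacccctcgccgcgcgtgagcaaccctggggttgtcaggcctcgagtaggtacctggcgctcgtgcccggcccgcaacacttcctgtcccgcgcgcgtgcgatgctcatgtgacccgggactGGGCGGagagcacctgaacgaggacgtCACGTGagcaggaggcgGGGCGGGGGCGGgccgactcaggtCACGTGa
Igfbp3 (chr11:7213924-7214173, minus strand): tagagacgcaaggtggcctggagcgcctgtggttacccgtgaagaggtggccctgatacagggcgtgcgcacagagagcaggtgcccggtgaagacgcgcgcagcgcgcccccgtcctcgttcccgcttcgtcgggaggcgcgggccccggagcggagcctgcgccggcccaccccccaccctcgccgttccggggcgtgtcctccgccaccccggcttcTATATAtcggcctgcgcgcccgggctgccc
Igfbp4 (chr11:99040994-99041243, plus strand): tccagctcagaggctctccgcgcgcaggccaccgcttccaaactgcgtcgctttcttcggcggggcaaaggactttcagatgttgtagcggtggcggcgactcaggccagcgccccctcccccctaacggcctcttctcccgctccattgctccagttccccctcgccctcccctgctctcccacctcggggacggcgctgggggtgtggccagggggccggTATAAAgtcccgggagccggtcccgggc
Igfbp5 (chr1:72874866-72875115, minus strand): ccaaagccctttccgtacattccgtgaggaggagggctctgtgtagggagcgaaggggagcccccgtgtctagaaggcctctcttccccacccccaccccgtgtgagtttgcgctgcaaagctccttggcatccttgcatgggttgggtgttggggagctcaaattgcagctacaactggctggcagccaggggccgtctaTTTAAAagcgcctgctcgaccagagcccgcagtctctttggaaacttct
Igfbp2 (chr1:72824230-72824479, plus strand, the first of 2 annotated starts): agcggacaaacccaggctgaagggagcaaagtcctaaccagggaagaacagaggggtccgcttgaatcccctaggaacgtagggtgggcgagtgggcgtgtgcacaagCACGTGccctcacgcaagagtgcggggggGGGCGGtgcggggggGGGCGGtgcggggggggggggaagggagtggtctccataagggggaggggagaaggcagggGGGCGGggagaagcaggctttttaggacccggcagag

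The receptor promoters held GC boxes and no TATA-type word in this window. Igf1r had 2 GGGCGG matches and 42 CG dinucleotides, more than 99.1% of the 32851 promoters in the same table, whose median was 6. Igf2r had 3 GGGCGG and 2 CACGTG matches. GGGCGG was found in 32.7% and CACGTG in 6.02% of all promoters of this length. The promoters of Igfbp3, Igfbp4 and Igfbp5 each held a TATA-type word upstream of the start. For Igfbp3 it was TATATA beginning 30 bases upstream, a word held by 5.25% of all promoters. For Igfbp4 it was TATAAA beginning 28 bases upstream (12.4% of all promoters), and for Igfbp5 TTTAAA beginning 49 bases upstream (12.1%). Igf1, with none of the 6 words, and Igfbp6, with TATAAA 148 bases upstream, are not printed. TGACTCA, held by 4.46% of all promoters, was found at the second Igfbp2 start alone among the 9 promoter entries of the members. These matches describe the letters and were not tested as sites.

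Between 10454 and 13134 gene rows reached 1 FPKM in a library, and read depth is unknown from FPKM. Changes are given on the log2(FPKM + 1) scale, which understates those of genes near 1 FPKM. Genes count as called where limma gave an adjusted p (Benjamini-Hochberg, over every gene tested) under 0.05. Whether replicates come from separate animals is not stated, and p-values therefore reflect only how far these libraries scatter. The cell type label reads cardiomyocyte for every library. Whole ventricles also held fibroblast transcripts, 338 to 765 FPKM summed over 7 markers, and endothelial transcripts, 145 to 320 FPKM over 7 markers. The isolated cells held 70.9 to 1240.0 FPKM of the fibroblast and 14.3 to 463 FPKM of the endothelial markers, and the explants 3.52 to 16.5 and 7.56 to 53.0 FPKM. Summed over 5 erythroid markers, isolated cells held 221 to 40386 FPKM and ventricles 282 to 2595 FPKM. The 3 isolated libraries taken 7 days after resection stood apart: 5 lung epithelial markers summed to 595, 178 and 1160 FPKM there, against 0.435, 0.451 and 2.70 FPKM after sham surgery. In the same libraries 4 atrial markers summed to 723, 1291 and 739 FPKM, against 40.9, 55.7 and 90.8 FPKM after sham surgery. In bulk RNA, fewer cells of a type and less RNA per cell cannot be told apart.

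By the median over all 36 libraries, the most abundant members were the binding protein gene Igfbp4 at 44.0 FPKM, the receptor gene Igf2r at 37.1 FPKM and the binding protein gene Igfbp5 at 31.2 FPKM, and Igfbp2 was the least at 0.133 FPKM. The order differed between preparations: in explants Igfbp4 had a median of 1.28 FPKM, below the 6.91 FPKM of Igf1r. Igf2r, the lysosomal sorting receptor, ranged from 21.6 to 61.5 FPKM in isolated cells (median 35.5, 12 libraries), from 24.7 to 65.2 FPKM in explants (median 33.3, 8 libraries) and from 29.4 to 126 FPKM in ventricles (median 50.5, 16 libraries). It was thus well expressed in every preparation. Igfbp4, a soluble binding protein cleaved by the protease PAPP-A, ranged from 8.35 to 92.5 FPKM in isolated cells, from 0.731 to 1.82 FPKM in explants and from 33.6 to 106 FPKM in ventricles. Igf1 showed the same separation, with 6.09 to 10.4 FPKM in isolated cells, 0.0505 to 0.235 FPKM in explants and 3.83 to 14.5 FPKM in ventricles. For both genes the explant range lay wholly below the ranges of the other preparations. Igfbp2, a binding protein gene typical of fetal tissues, did not pass 1.82 FPKM in any library and was listed at 0 in 9 of the 36.

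**Figure D1:**
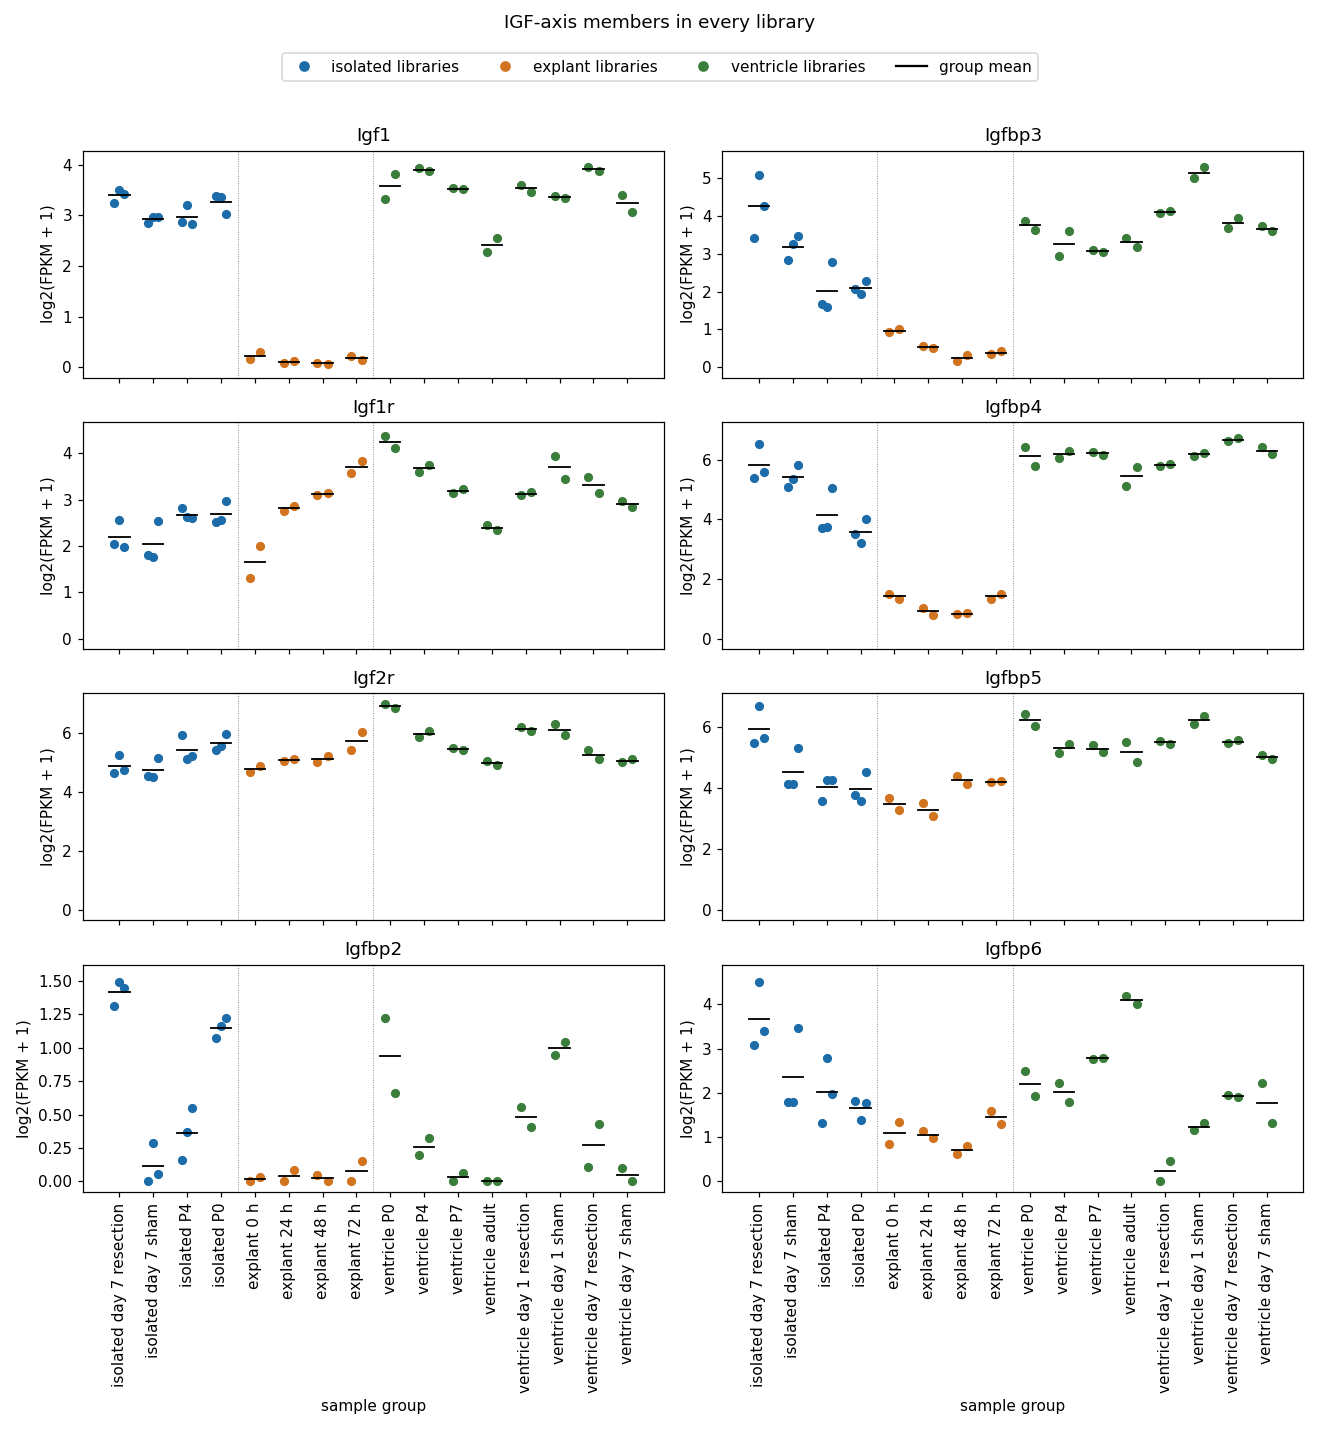
Level of each member in every library, as log2(FPKM + 1), by sample group, with points for libraries and bars for group means. Igf1, Igfbp3 and Igfbp4 are near the floor in all explant libraries, Igf1r and Igf2r are highest in whole ventricle at P0, and Igfbp2 is highest in isolated cells 7 days after resection.

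Ranked by group mean, Igf1r and Igf2r were both highest in P0 ventricle, at 18.0 and 120 FPKM, and that group overlapped none of its neighbours in the order. Of all 15 neighbouring pairs in the order, 11 overlapped for Igf1r and 13 for Igf2r. Igfbp5, a matrix-binding member of the family, gave no break at all: each of its 15 neighbouring pairs overlapped, from 74.6 FPKM in ventricle 1 day after sham surgery to 8.83 FPKM in explants at 24 h. Igfbp3, the main carrier of IGFs in blood, was highest in ventricle 1 day after sham surgery, at a mean of 34.8 FPKM, a range that overlapped only that of isolated cells 7 days after resection. Igfbp6, which prefers IGF-II, was highest in adult ventricle at a mean of 16.1 FPKM. Its next group, isolated cells 7 days after resection, had 7.50, 21.8 and 9.55 FPKM, and overlapped the isolated cells after sham surgery, which reached 10.1 FPKM.

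The measured binding protein genes together summed to 105 to 197 FPKM in ventricles, 25.0 to 252 FPKM in isolated cells and 9.59 to 21.5 FPKM in explants. Igfbp4 and Igfbp5 made up most of this sum in each ventricle library. In explants Igfbp5 alone held 68.2% to 93.3% of it. Igfbp4 held 57.0%, 58.9% and 48.3% of the sum in isolated cells 7 days after sham surgery, against 34.8%, 33.4% and 33.9% at P0. These sums and shares are descriptions and were not tested.

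**Figure D2:**
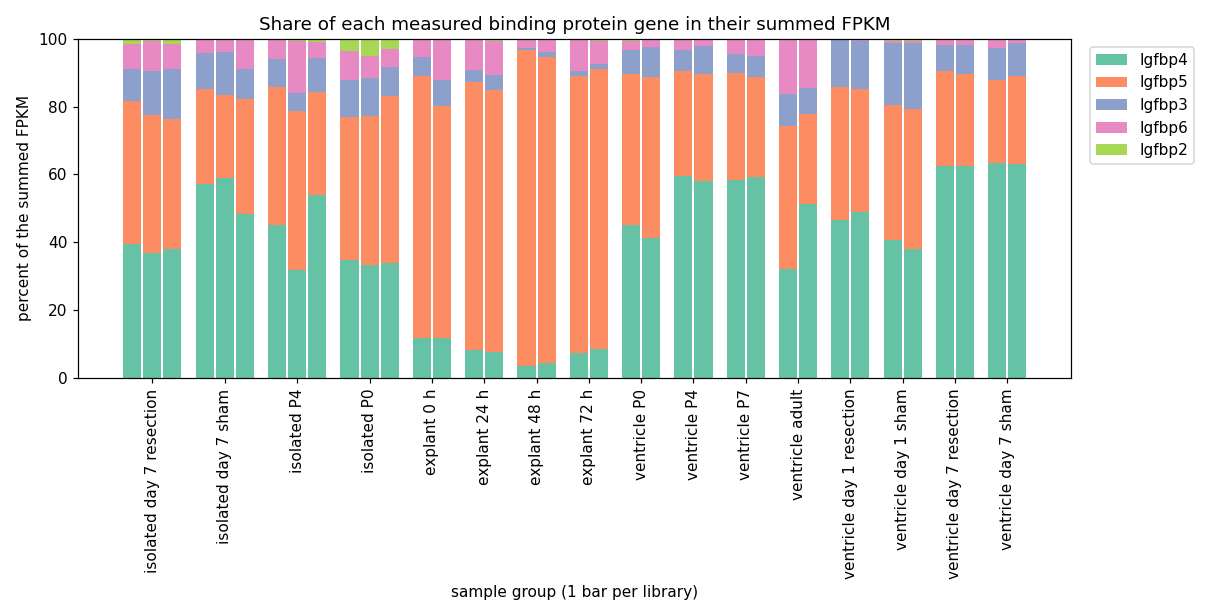
Share of each measured binding protein gene in their summed FPKM, in percent, 1 bar per library by sample group. Igfbp4 and Igfbp5 fill most bars, Igfbp5 alone holds 68.2% to 93.3% in explants, and Igfbp6 reaches 16.3% and 14.5% in the adult ventricles.

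In whole ventricle the receptor genes and the ligand gene Igf2 were lower at each later age, while Igf1 fell and Igfbp6 rose in adults. Igf1r had 19.7 and 16.2 FPKM at P0, 11.1 and 12.5 FPKM at P4, 7.79 and 8.32 FPKM at P7, and 4.48 and 4.05 FPKM in adults. Igf2r had 126 and 114 FPKM at P0, 57.0 and 66.7 FPKM at P4, 43.9 and 42.2 FPKM at P7, and 32.3 and 29.4 FPKM in adults. For both receptors the libraries of each age lay below all those of the age before. In adults against P0 the log2 change was -1.84 ± 0.17 (SE) for Igf1r (adjusted p = 2.78e-06) and -1.93 ± 0.15 for Igf2r (adjusted p = 4.97e-07). The insulin receptor gene Insr, whose product can pair with IGF1R in hybrid receptors, had 28.1 and 28.8 FPKM at P0, 23.5 and 23.2 FPKM at P4, 20.7 and 20.8 FPKM at P7, and 22.7 and 21.3 FPKM in adults. Its change in adults against P0 was smaller, -0.36 ± 0.12 (adjusted p = 0.0195), equal to 2 decimals to the median of all genes. The ratio of Igf1r to Insr was 0.198 and 0.190 in adults, against 0.703 and 0.562 at P0.

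Of the 8 members, 6 fell and 1 rose in adults against P0. In the same comparison 43.6% of the 14306 genes tested were called lower, 13.4% higher and 56.9% in either direction. The median of all genes was -0.36 and that of the members -0.99. The split of all genes was 1910 higher and 6237 lower as deposited, but 3670 and 3247 after median-of-ratios scaling, so changes are also given relative to that median. On that footing Igf1r stood at -1.48, Igf2r at -1.57 and Igf1 at -0.81. Between P7 and P0, 5 members fell and none rose, against 8.21% of all genes called lower, 4.35% higher and 12.6% in all. That split was 622 higher and 1175 lower, and 926 and 639 after median-of-ratios scaling. Fibroblast markers summed to 765 and 721 FPKM at P7, against 627 and 466 FPKM at P0, with 4 of 7 called higher, and 5 of 6 epicardial markers were called lower. Between adults and P7, 4 members fell and 1 rose, against 29.8% of all genes called lower, 10.7% higher and 40.6% in all. That split was 1532 higher and 4270 lower, and 3036 and 2504 after median-of-ratios scaling. The 4 that fell were Igf1 (-1.12), Igf1r (-0.78), Igf2r (-0.47) and Igfbp4 (-0.78). The call of Igf2r was lost without any 1 of the 4 libraries (adjusted p 0.0514 to 0.138) and that of Igfbp4 without P7 replicate 1 or adult replicate 1 (0.0725 and 0.155). Both calls were also lost under median-of-ratios scaling and in a single fit over all 36 libraries. Fibroblast markers, 6 of 7 called lower, summed to 353 and 356 FPKM in adults, against 765 and 721 FPKM at P7. Endothelial markers, 5 of 7 called lower and 1 higher, summed to 178 and 195 FPKM in adults, against 312 and 300 FPKM at P7. Of 7 smooth muscle and pericyte markers 3 were called lower, and 5 of 8 macrophage markers were called higher. The part of these marker differences was not tested. The comparisons of adults with P0, P7 with P0 and adults with P7 share libraries and are not independent.

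Both ligand genes were lower in adult than in P0 ventricle. Igf2, the fetal growth ligand, had 753 and 580 FPKM at P0, 284 and 328 FPKM at P4, 185 and 188 FPKM at P7, and 15.2 and 20.8 FPKM in adults. Igf1, the ligand that follows growth hormone after birth, had 9.03 and 13.2 FPKM at P0, 14.2 and 13.7 FPKM at P4, 10.6 and 10.5 FPKM at P7, and 3.83 and 4.83 FPKM in adults. Igf2 was thus lower at each later age of ventricle, while for Igf1 the P0 and P7 ranges overlapped and the adult libraries lay below the rest. In isolated cells Igf2 had means of 182 FPKM at P0, 155 FPKM at P4 and 193 FPKM at day 7 after sham surgery. At day 7 after resection its isolated libraries ran from 31.0 to 223 FPKM. In P7 against P0 Igf2 fell by 1.82 (adjusted p = 6.06e-05), and the Igf1 change was -0.05 (adjusted p = 0.882). In adults against P7 Igf1 fell by 1.12 (adjusted p = 0.000232) and Igf2 fell by 3.31 (adjusted p = 1.3e-07). A called fall of 1 ligand and not of the other at P7 is not a test of their difference, which was not made. Ghr, the growth hormone receptor gene, rose in adults against P0 by 0.89 (means 62.6 and 33.6 FPKM, adjusted p = 0.000109).

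Among the binding protein genes, Igfbp6 rose in adults. It had 4.65 and 2.78 FPKM at P0, 3.67 and 2.48 FPKM at P4, 5.81 and 5.94 FPKM at P7, and 17.1 and 15.1 FPKM in adults. Both adult libraries lay above every younger ventricle, with a log2 change of 1.89 ± 0.27 against P0 (adjusted p = 9.27e-05) and 1.31 ± 0.27 against P7 (adjusted p = 0.00231), though the call against P7 was lost with a pseudocount of 0.1 (adjusted p = 0.0669). Igfbp5 had 84.7 and 63.7 FPKM at P0, 34.6 and 42.4 FPKM at P4, 41.1 and 35.3 FPKM at P7, and 44.3 and 27.8 FPKM in adults. Its P0 libraries lay above all later ones, which overlapped each other, and it was lower in P7 than in P0 by -0.93 ± 0.20 (adjusted p = 0.0109). Without P0 replicate 1 or P7 replicate 2 that call was lost (adjusted p = 0.109 and 0.0844), and likewise in a single fit over all libraries (adjusted p = 0.209).

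Igfbp2 had 1.34 and 0.578 FPKM at P0, 0.147 and 0.249 FPKM at P4, 0 and 0.0457 FPKM at P7, and was listed at 0 in both adults. It was called lower at P7 than at P0 (adjusted p = 0.00825), and at 0.0637 without P7 replicate 1. Without P0 replicate 1, the higher of the P0 libraries, it did not pass the filter on low values and was not tested. Atrial markers moved the same way, with 3 of 4 called lower at P7, and their part in the Igfbp2 change was not tested. Igfbp3 had 13.7 and 11.5 FPKM at P0, 6.67 and 11.2 FPKM at P4, 7.55 and 7.28 FPKM at P7, and 9.68 and 8.15 FPKM in adults. Its fall at P7 against P0 was small, -0.69 ± 0.20 (adjusted p = 0.0383), and it was lost without any 1 of the 4 libraries (adjusted p 0.0617 to 0.213), without the filter, under both other scalings and in the single fit. Igfbp4 had 85.8 and 54.8 FPKM at P0, 66.4 and 78.2 FPKM at P4, 76.4 and 70.8 FPKM at P7, and 33.6 and 53.6 FPKM in adults. The adult value was lower than P0 by -0.68 ± 0.22 (adjusted p = 0.0178), a call lost without P0 replicate 1 (log2 change -0.36) or adult replicate 1 (-0.35), under median-of-ratios scaling (-0.23) and in the single fit.

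**Figure D3:**
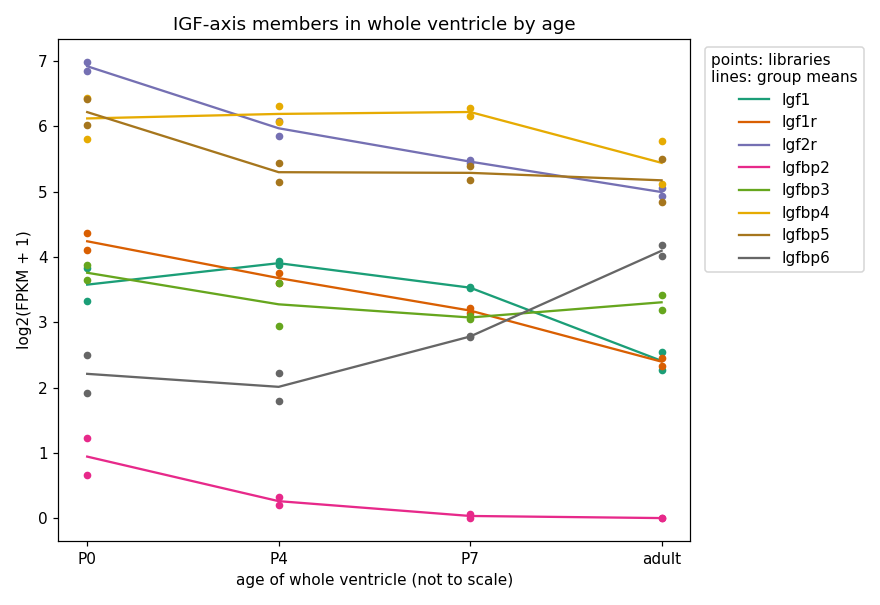
Level of the 8 members in whole ventricle at P0, P4, P7 and in adults, as log2(FPKM + 1), with points for the 2 libraries of each age and lines through group means. Igf1r and Igf2r step down at every age, Igf1 is lowest in adults, and Igfbp6 is higher in adults.

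Downstream genes of the axis were called in both directions in adults against P0, where 43.6% of all genes were called lower and 13.4% higher. Of 14 PI3K, AKT and FOXO genes, 6 fell and 1 rose, a share near that of all genes, and their median was -0.19 where that of all genes was -0.36. Akt1, a kinase of the pathway, had means of 62.8 FPKM in adults and 137 FPKM at P0 (log2 change -1.11, adjusted p = 9.55e-05). Pik3r1, the regulatory subunit of PI3K, had 31.3 FPKM in adults and 14.0 FPKM at P0 (1.10, adjusted p = 5e-06). Of 6 IRS and adaptor genes tested, 4 fell and 1 rose: Gab1, a docking protein, fell by 0.99, and Grb14, an adaptor that inhibits the insulin receptor, rose by 1.21. Of 11 mTOR branch genes, 3 fell and 3 rose, among them Eif4ebp1, the translation repressor, at -1.48 and Ddit4, an inhibitor of mTOR complex 1, at 1.03. Of 8 lysosomal enzyme genes, which are cargo of IGF2R, 3 rose and 1 fell, while Igf2r itself fell. The cathepsin genes Ctsd and Ctsb rose by 1.25 and 1.21. All 8 macrophage markers also rose, summing to 143 and 192 FPKM in adults, against 38.9 and 30.3 FPKM at P0, and their part in the rise of the cathepsins was not tested.

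At 1 day after resection, 3 of the 5 binding protein genes were called lower than after sham surgery. Igfbp3 had 15.9 and 16.5 FPKM in resected ventricles, against 31.3 and 38.3 FPKM in sham ventricles. Igfbp5 had 45.8 and 42.1 FPKM after resection, against 67.9 and 81.2 FPKM after sham surgery. Igfbp6 was listed at 0 and 0.385 FPKM after resection, against 1.23 and 1.48 FPKM after sham surgery. In these 3 the groups did not overlap, and the sham values of Igfbp3 were the highest of any ventricle group. The resected values of Igfbp3 also lay above those of every unoperated ventricle, which ran from 6.67 to 13.7 FPKM. The log2 changes were -1.05 ± 0.20 for Igfbp3 (adjusted p = 0.00853), -0.75 ± 0.20 for Igfbp5 (adjusted p = 0.0372) and -1.0 ± 0.27 for Igfbp6 (adjusted p = 0.0382). These 3 of the 8 members were called, against 10.3% of the 14306 genes tested, 8.88% lower and 1.38% higher. The median of all genes was -0.16, and the split of 198 higher and 1270 lower became 456 and 554 after median-of-ratios scaling.

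The 3 calls were not equally firm. That of Igfbp3 was lost in the single fit over all libraries (adjusted p = 0.108) and without sham replicate 2 (log2 change -0.91, adjusted p = 0.084). Those of Igfbp5 and Igfbp6 were lost without the filter, under both other scalings and in the single fit. The Igfbp5 call was lost without any 1 of the 4 libraries (adjusted p 0.0655 to 0.202). The Igfbp6 call, which rests in part on resection replicate 1 being listed at 0, was lost without sham replicate 1, sham replicate 2 or resection replicate 1 (adjusted p 0.0918, 0.176 and 0.22). The other 2 binding protein genes were not called, though their groups did not overlap either. The share of all genes without overlap was not counted. Igfbp2 had 0.472 and 0.323 FPKM after resection, against 0.927 and 1.07 FPKM after sham surgery (-0.51, adjusted p = 0.0966). Igfbp4 had 54.1 and 56.9 FPKM after resection, against 69.3 and 74.6 FPKM after sham surgery (-0.37, adjusted p = 0.289). Igf1r had 7.56 and 7.91 FPKM after resection, against 14.4 and 9.87 FPKM after sham surgery, a change of -0.57 that was not called (adjusted p = 0.0551) and was called without sham replicate 2 (adjusted p = 0.0473). Igf2r, with 73.5 and 66.5 FPKM after resection against 77.5 and 60.7 FPKM after sham surgery, overlapped between groups (log2 change 0.03, 95% interval -0.29 to 0.34). Igf1 had 11.2 and 10.1 FPKM after resection, against 9.39 and 9.18 FPKM after sham surgery, and was not called (adjusted p = 0.526).

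Macrophage markers differed in the same libraries. Their sum over 8 genes was 32.3 and 33.9 FPKM 1 day after resection, against 75.7 and 112 FPKM after sham surgery, with 5 of 8 genes called lower. Endothelial markers, 2 of 7 called lower, summed to 145 and 203 FPKM after resection, against 230 and 234 FPKM after sham surgery. Smooth muscle and pericyte markers, 2 of 7 called lower, summed to 292 and 335 FPKM after resection, against 474 and 348 FPKM after sham surgery. Of 6 epicardial markers 1 was called lower. Fibroblast markers summed to 373 and 373 FPKM after resection, against 338 and 377 FPKM after sham surgery, and 0 of 7 were called in limma. The part of these marker differences in the binding protein values was not tested. Of the wider axis, Stc2, a secreted inhibitor of the protease PAPP-A, fell by 1.01 (means 2.13 and 5.32 FPKM, adjusted p = 0.00144). Of 11 mTOR branch genes 3 fell and none rose, with Ddit4 at -1.68 (means 14.8 and 45.6 FPKM) and Rheb, the GTPase that activates mTOR complex 1, at -0.96. Of 8 lysosomal enzyme genes 2 fell, Ctsl by 0.71 and Ctsb by 0.55, and 1 of 14 PI3K, AKT and FOXO genes fell, Pik3r1 by 0.55.

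At 7 days after resection no member was called in whole ventricle. The median log2 change was 0.30 over the members and 0.11 over all genes. Igf1 had 14.5 and 13.6 FPKM after resection, against 9.64 and 7.42 FPKM after sham surgery (log2 change 0.67 ± 0.17, adjusted p = 0.176). Igf1r had 10.2 and 7.89 FPKM after resection, against 6.89 and 6.12 FPKM after sham surgery (0.42 ± 0.17, adjusted p = 0.415). Igfbp5 had 43.6 and 46.0 FPKM after resection, against 32.5 and 29.9 FPKM after sham surgery (0.51 ± 0.20, adjusted p = 0.385). Igf1, Igf1r, Igfbp5, Igf2r, Igfbp2 and Igfbp4 lay higher without overlap, and the share of all genes that did so was not counted. In limma 3 of 8 members had an unadjusted p under 0.05, as did 1556 of the 14306 genes tested. In this comparison 0.154% of all genes were called, 22 of 14306 (0.147% higher and 0.00699% lower), so few genes of any kind passed. Lung epithelial markers were higher here too, with 215 and 95.9 FPKM after resection against 2.57 and 25.9 FPKM after sham surgery and 3 of 5 genes called. Macrophage markers summed to 144 and 106 FPKM after resection, against 66.1 and 62.9 FPKM after sham surgery, with 0 of 8 called in limma. The part of either in the member values was not tested.

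The resection effect itself differed between day 7 and day 1 for 3 members. The difference of the log2 changes was 1.26 ± 0.29 for Igfbp5 (adjusted p = 0.028), 1.21 ± 0.28 for Igfbp3 (adjusted p = 0.0283) and 0.98 ± 0.25 for Igf1r (adjusted p = 0.0363). For all 3 the day 1 change was below 0 and the day 7 change above 0. In the same contrast 5 of 8 macrophage and 4 of 5 lung epithelial markers were called higher, and their part was not tested. In this contrast 5.93% of all genes were called, 5.69% higher and 0.245% lower, or 814 and 35 genes, and 223 and 104 after median-of-ratios scaling. None of the 3 calls held without the filter, under either other scaling or in the single fit. Igfbp3 was lost without any 1 of 6 of the 8 libraries (adjusted p 0.0522 to 0.103), Igfbp5 without any 1 of 5 (0.0546 to 0.1) and Igf1r without any 1 of 5 (0.0761 to 0.14).

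**Figure D4:**
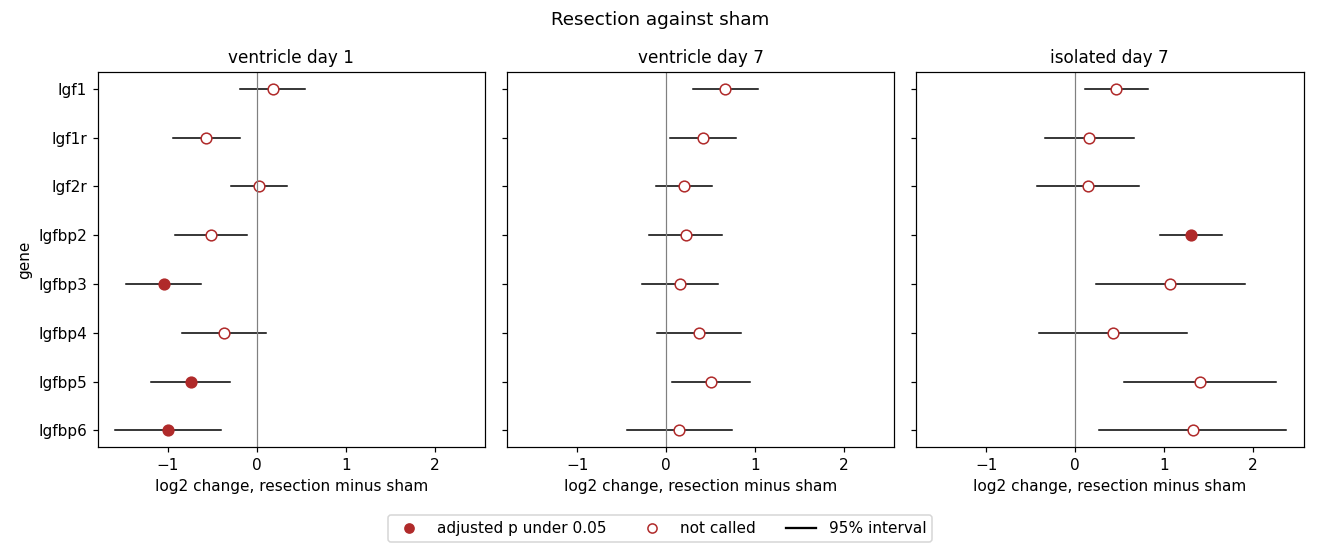
Log2 change of each member, resection minus sham, in whole ventricle at day 1, whole ventricle at day 7 and isolated cardiomyocytes at day 7, with 95% intervals and filled points for adjusted p under 0.05. Igfbp3, Igfbp5 and Igfbp6 are called lower in ventricle at day 1, no member is called in ventricle at day 7, and Igfbp2 is called higher in isolated cells.

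In isolated cardiomyocytes Igfbp2 was higher 7 days after resection than after sham surgery. It had 1.49, 1.82 and 1.73 FPKM after resection, against 0, 0.223 and 0.0375 FPKM after sham surgery. The groups stood wide apart, and the resection values were the highest of any group. The log2 change was 1.3 ± 0.16 (95% interval 0.96 to 1.65, adjusted p = 0.00284), and the call held under all 6 other settings and without any 1 of the 6 libraries. It was 1 of 8 members called, against 1.08% of the 13143 genes tested and 1.07% called higher. In whole ventricle at day 7 Igfbp2 had 0.0773 and 0.349 FPKM after resection, against 0.0711 and 0 FPKM after sham surgery. The effect in isolated cells exceeded that in ventricle by 1.08 ± 0.21 (adjusted p = 0.0343), in a contrast where 0.0735% of all genes were called (0.0401% higher and 0.0334% lower, or 6 and 5 genes, with 42 and 7 after median-of-ratios scaling). This difference was not called with a pseudocount of 0.1 (adjusted p = 0.438), in a fit of the compared groups alone (0.367), or without any 1 of 5 of the 10 libraries (0.0669 to 0.252).

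The atrial and lung epithelial transcripts described above moved with this Igfbp2 difference. All 4 atrial and all 5 lung epithelial markers were called higher in isolated cells after resection. The gene whose group means ran closest to Igfbp2 over the 16 groups was Myl7, the atrial myosin light chain (r = 0.881), followed by Bmp10, a ligand made in atria (0.873), and Myl4, another atrial light chain (0.861). Atrial marker sums are given here beside Igfbp2, and a sum can hide markers that differ from each other. In P0 isolated cells the markers summed to 475, 476 and 576 FPKM and Igfbp2 had 1.10, 1.23 and 1.33 FPKM. In P4 isolated cells they summed to 77.6, 294 and 1187 FPKM, with Igfbp2 at 0.118, 0.289 and 0.464 FPKM. In ventricles 7 days after resection they summed to 394 and 480 FPKM, with Igfbp2 at 0.0773 and 0.349 FPKM. In adult ventricles they summed to 446 and 332 FPKM, with Igfbp2 listed at 0 in both. Of the 4 atrial markers, 3 were called lower in adult than in P0 ventricle, with a median log2 change of -5.03. The part of atrial or lung cells in the Igfbp2 difference was not tested.

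Other members differed in isolated cells after resection without being called. Igfbp5 had 43.1, 102 and 48.1 FPKM after resection, against 16.3, 16.5 and 38.9 FPKM after sham surgery (log2 change 1.40 ± 0.39, adjusted p = 0.13). Igfbp6 had 7.50, 21.8 and 9.55 FPKM after resection, against 2.44, 2.45 and 10.1 FPKM after sham surgery (1.32 ± 0.49, adjusted p = 0.27). Igfbp3 had 9.66, 33.2 and 18.3 FPKM after resection, against 6.22, 8.56 and 10.0 FPKM after sham surgery (1.07 ± 0.39, adjusted p = 0.255). Resection replicate 2 was the highest and sham replicate 3 the highest of its group for all 3 genes, and only Igfbp5 did not overlap. Without sham replicate 3, Igfbp5 (1.80, adjusted p = 0.0196) and Igfbp6 (1.88, adjusted p = 0.03) were called, and all 3 were called in the single fit over all libraries. Endothelial markers summed to 150, 388 and 17.0 FPKM after resection, against 428, 463 and 404 FPKM after sham surgery. Fibroblast markers followed the same libraries, with 540, 1240.0 and 566 FPKM after resection and 92.7, 130 and 658 FPKM after sham surgery, and their part was not tested. Igf1 had 8.49, 10.4 and 9.76 FPKM after resection, against 6.25, 6.87 and 6.78 FPKM after sham surgery, without overlap and without a call (0.46 ± 0.16, adjusted p = 0.246). Of the matricellular CCN genes, relatives of the binding proteins in their first domain, Wisp1 and Ctgf rose, by 1.02 and 1.00, as 2 of 5.

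In isolated cells at P4 against P0 no member was called in limma, and 1 gene of 13143 (0.00761%) was called in all. An unadjusted p under 0.05 in limma was found for 1 of 8 members and for 347 of the 13143 genes. That member was Igfbp2, with 0.118, 0.289 and 0.464 FPKM at P4 against 1.10, 1.23 and 1.33 FPKM at P0 (log2 change -0.79, adjusted p = 0.434, and 0.025 in the single fit). In isolated cells at day 7 after sham surgery against P0, a comparison in which surgery and age change together, Igfbp4 rose while Igf2r and Igfbp2 fell. Igfbp4 had 33.2, 39.8 and 55.1 FPKM at day 7 after sham surgery, against 10.3, 8.35 and 15.2 FPKM at P0 (1.84 ± 0.38, adjusted p = 0.00906). Igf2r had 22.6, 21.6 and 34.4 FPKM at day 7 after sham surgery, against 42.2, 46.4 and 61.5 FPKM at P0 (-0.92 ± 0.27, adjusted p = 0.0246). Neither gene overlapped between the groups, but the Igf2r call was lost without the filter and without any 1 of 4 of the 6 libraries (adjusted p 0.0596 to 0.104). These 3 of 8 members were called where 27.8% of all genes were, 8.55% higher and 19.3% lower, with a median of -0.22 over all genes. The split of 1124 higher and 2533 lower became 2075 and 1301 after median-of-ratios scaling.

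Endothelial markers also rose in that comparison, 7 of 7, to 428, 463 and 404 FPKM after sham surgery against 19.9, 14.3 and 90.9 FPKM at P0. Their part in the Igfbp4 rise was not tested. Cardiomyocyte markers, 3 of 5 called lower, summed to 4212, 3363 and 4384 FPKM after sham surgery, against 6652, 6845 and 8226 FPKM at P0. The part of this cardiomyocyte marker difference in the genes that fell was not tested. Igfbp2 had 0, 0.223 and 0.0375 FPKM after sham surgery, against 1.10, 1.23 and 1.33 FPKM at P0 (-1.04 ± 0.16, adjusted p = 0.00412), and all 4 atrial markers fell with it. Igfbp3 had 6.22, 8.56 and 10.0 FPKM after sham surgery, against 3.19, 2.85 and 3.88 FPKM at P0, without overlap (1.09, adjusted p = 0.0516). It was called under 5 of the 6 other settings (adjusted p 0.00548 to 0.0456). Igf1r had 2.51, 2.39 and 4.78 FPKM after sham surgery, against 4.70, 4.90 and 6.86 FPKM at P0 (-0.65, adjusted p = 0.0531), and was called without sham replicate 3 (-0.89, adjusted p = 0.0118), with quantile normalization and in the single fit. Insr fell by 1.03 (means 8.39 and 17.8 FPKM, adjusted p = 0.0134). The docking genes Irs1 and Gab1 fell by 0.67 and 0.59, as 2 of 6 IRS and adaptor genes tested. Of 14 PI3K, AKT and FOXO genes, 3 rose and 2 fell, with Pik3cb at 1.04 and Foxo1, a transcription factor held out of the nucleus by AKT, at 0.93.

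In explanted adult cardiomyocytes Igf1r rose with time. It had 1.49 and 3.005 FPKM at 0 h, 5.79 and 6.26 FPKM at 24 h, 7.55 and 7.81 FPKM at 48 h, and 10.8 and 13.3 FPKM at 72 h. The libraries of each time lay above all those of the time before. The log2 change was 2.04 ± 0.27 at 72 h against 0 h (adjusted p = 0.00128), and it was called under all 6 other settings and without any 1 of the 4 libraries. At 24 h against 0 h it was 1.15 ± 0.27 (adjusted p = 0.0303). The 24 h call was lost without the filter (0.0731), under both other scalings (0.13 and 0.193) and without 0 h replicate 1, 24 h replicate 1 or 24 h replicate 2 (0.111, 0.132 and 0.135). All genes moved upward on the deposited scale, with a median of 0.37 at 24 h and 0.76 at 72 h. Relative to these medians Igf1r stood at 0.78 and 1.28. Cell markers moved over the same times. Cardiomyocyte markers, 4 of 5 called lower, summed to 2179 and 2601 FPKM at 72 h against 15975 and 10747 FPKM at 0 h. Macrophage markers summed to 137 and 83.6 FPKM at 72 h, against 2.54 and 2.01 FPKM at 0 h. Of these 8 macrophage markers only 3 could be tested, and all 3 rose, while 5 were under 1 FPKM in both libraries at 72 h. The part of these marker changes in the Igf1r rise was not tested.

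Of the 5 members tested in explants, 1 was called at 24 h, against 17.9% of the 12246 genes tested (15.4% higher and 2.55% lower). At 72 h 3 were called higher, against 46.8% of all genes called higher, 9.07% lower and 55.8% in all. With the replicate block 4899 genes were called at 24 h, against 2194 without it. The splits of 1882 higher and 312 lower at 24 h and 5726 and 1111 at 72 h became 563 and 916, and 1800 and 2399, after median-of-ratios scaling. Igf2r had 24.7 and 28.8 FPKM at 0 h, 32.5 and 34.0 FPKM at 24 h, 31.3 and 36.7 FPKM at 48 h, and 42.1 and 65.2 FPKM at 72 h. Igfbp5 had 11.8 and 8.76 FPKM at 0 h, 10.2 and 7.42 FPKM at 24 h, 20.03 and 16.6 FPKM at 48 h, and 17.3 and 17.6 FPKM at 72 h. Both were called higher at 72 h, by 0.95 (adjusted p = 0.0156) and 0.72 (adjusted p = 0.0386), without overlap with 0 h. Relative to the median of all genes they stood at 0.19 and -0.04. Under median-of-ratios scaling Igf2r was at 0.05 and Igfbp5 at -0.14, and neither was called.

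Neither call was stable over the libraries. That of Igf2r was lost without 0 h replicate 1 or 72 h replicate 2 (adjusted p = 0.0682 and 0.0703). That of Igfbp5 was lost without 0 h replicate 2, 72 h replicate 1 or 72 h replicate 2 (adjusted p 0.183, 0.0983 and 0.103), without the filter and in the single fit. Insr had 18.3 and 17.3 FPKM at 0 h, 23.9 and 19.7 FPKM at 24 h, 19.995 and 17.7 FPKM at 48 h, and 29.7 and 21.8 FPKM at 72 h, and was not called at 72 h against 0 h (0.50, adjusted p = 0.0971). The ratio of Igf1r to Insr was 0.0815 and 0.174 at 0 h, 0.242 and 0.318 at 24 h, 0.378 and 0.441 at 48 h, and 0.365 and 0.610 at 72 h. This ratio does not depend on a scaling that multiplies a whole library, such as median-of-ratios, and its 0 h values lay below all later ones. Igfbp4 had 1.81 and 1.52 FPKM at 0 h, 1.05 and 0.731 FPKM at 24 h, 0.752 and 0.804 FPKM at 48 h, and 1.52 and 1.82 FPKM at 72 h. It was lower without overlap at 24 h than at 0 h, was not called (-0.50, adjusted p = 0.146), and was called lower under both other scalings (-0.85 and -0.93). Igfbp6 ranged from 0.536 to 2.01 FPKM and was called at neither time. Igf1 did not pass 0.235 FPKM and Igfbp2 did not pass 0.110 FPKM in any explant library. Igfbp3 had 0.897 and 1.02 FPKM at 0 h, 0.472 and 0.409 FPKM at 24 h, 0.123 and 0.246 FPKM at 48 h, and 0.263 and 0.349 FPKM at 72 h, and like these 2 genes it was too low to be tested.

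**Figure D5:**
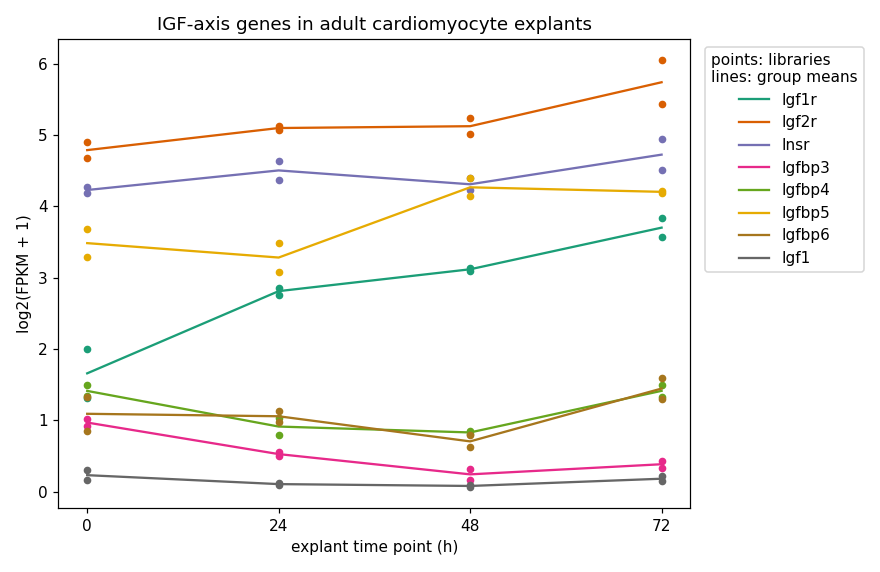
Level of IGF-axis genes in explanted adult cardiomyocytes at 0, 24, 48 and 72 h, as log2(FPKM + 1), with points for the 2 libraries of each time and lines through group means. Igf1r climbs at each time, Igf2r and Igfbp5 are higher at 72 h than at 0 h on the deposited scale, and Igf1 and Igfbp3 stay near the floor.

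Counts of genes that IGF1R signals through, for explants at 72 h against 0 h, stand beside 46.8% of all genes called higher and 9.07% lower. Of 14 PI3K, AKT and FOXO genes 6 rose and 1 fell, with a median of 0.56 that was below the 0.76 of all genes. Pik3cb, a catalytic subunit of PI3K, rose by 1.62 (means 9.03 and 2.27 FPKM) and Gsk3b, a kinase inhibited by AKT, rose by 1.60 (32.9 and 10.2 FPKM). Of 6 IRS and adaptor genes tested, Shc1 rose by 1.41 while Grb14 fell by 3.54 (means 11.3 and 148 FPKM) and Irs2 fell by 0.98. At 24 h Irs2, an adaptor of both receptors, had fallen by 1.99 (means 6.19 and 29.5 FPKM, adjusted p = 0.0154). Of 11 mTOR branch genes 5 rose and 1 fell at 72 h, with Eif4ebp1 at 2.80 and Ddit4 at 1.79. Of 8 lysosomal enzyme genes 6 rose, with a median of 1.35, among them Ctsb at 1.83. M6pr, the second mannose 6-phosphate receptor, rose by 1.42 (means 15.3 and 5.12 FPKM, adjusted p = 0.00395). The part of the macrophage and cardiomyocyte marker changes given above in these rises was not tested either.

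At P0, 5 of the 8 members were called lower in isolated cells than in whole ventricle. Of the 14962 genes tested 53.7% were called lower and 54.5% in either direction, with a median of -0.57, so the members' count is near that of all genes. The split of 106 higher and 8042 lower became 459 and 552 after median-of-ratios scaling. Igfbp4 had 10.3, 8.35 and 15.2 FPKM in isolated cells, against 85.8 and 54.8 FPKM in ventricle (-2.54 ± 0.33, adjusted p = 1.26e-05). Igfbp5 had 12.5, 10.95 and 22.0 FPKM in isolated cells, against 84.7 and 63.7 FPKM in ventricle (-2.27 ± 0.34, adjusted p = 4.94e-05). Fibroblast markers summed to 198, 177 and 125 FPKM in isolated cells, against 627 and 466 FPKM in ventricle, and endothelial markers to 19.9, 14.3 and 90.9 FPKM, against 267 and 221 FPKM. Cardiomyocyte markers summed to 6652, 6845 and 8226 FPKM in isolated cells, against 11234 and 9907 FPKM in ventricle. Erythroid markers summed to 11777, 12051 and 565 FPKM in isolated cells, against 857 and 732 FPKM in ventricle. The part of any of these cells was not tested. Igfbp4 and Igfbp5 stayed below the median of all genes, at -1.97 and -1.70 relative to it, and neither overlapped. Igfbp3 (-1.66), Igf1r (-1.56) and Igf2r (-1.27) were the other members called, and the Igf2r call was lost under median-of-ratios scaling (-0.50, adjusted p = 0.152). Igf1 had 9.41, 9.34 and 7.12 FPKM in isolated cells, against 9.03 and 13.2 FPKM in ventricle, and overlapped. It was not called (-0.32, adjusted p = 0.0936) and lay at 0.38 under median-of-ratios scaling. It was called lower without ventricle P0 replicate 1 (-0.57, adjusted p = 0.0306). Igfbp2 was not called either (0.21, adjusted p = 0.234), but was called higher in isolated cells under both other scalings (0.59 and 0.71) and without ventricle P0 replicate 1 (0.49, adjusted p = 0.0324).

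Explants at 0 h set against adult ventricle compared dissociated adult cardiomyocytes with whole adult tissue, and 4 of the 5 measured binding protein genes, Igf1 and Igf1r were lower in the explants. Igfbp4 had 1.81 and 1.52 FPKM in explants at 0 h, against 33.6 and 53.6 FPKM in adult ventricle (-4.03 ± 0.37, adjusted p = 1.71e-08). Igf1 had 0.115 and 0.235 FPKM in explants at 0 h, against 3.83 and 4.83 FPKM in adult ventricle (-2.18 ± 0.18, adjusted p = 2.62e-09). Igfbp6 (-3.0), Igfbp3 (-2.34) and Igfbp5 (-1.69) were also called lower, each without overlap. Igf2r had 24.7 and 28.8 FPKM in explants at 0 h, against 32.3 and 29.4 FPKM in adult ventricle, lower without overlap but not called (-0.20, 95% interval -0.74 to 0.33). In all, 6 of 8 members fell, against 31.7% of all genes called lower and 33.5% in all, with a median of -0.37. The split of 271 higher and 4746 lower became 1959 and 2180 after median-of-ratios scaling. The sixth, Igf1r (-0.74, adjusted p = 0.0251), was not called under both other scalings, in a fit of the compared groups alone, or without explant 0 h replicate 1 or either adult ventricle library (adjusted p 0.0735 to 0.304). Fibroblast markers fell with the binding protein genes, 7 of 7, to 9.55 and 16.5 FPKM in explants against 353 and 356 FPKM in adult ventricle. Endothelial markers summed to 27.3 and 53.0 FPKM in explants, against 178 and 195 FPKM in adult ventricle, and the part of either cell type was not tested.

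The genes whose group means followed each member most closely were found by Pearson's r over the 16 groups, among 9120 gene rows with a group mean of at least 5 FPKM. The groups share preparations and ages, so these values are descriptions. Igfbp4 ran closest to Lima1 (r = 0.994), Nid1, a basement membrane gene (0.993), and Rhoj, an endothelial GTPase (0.992). Igf1 ran closest to Loxl2, an enzyme that cross-links collagen (0.990), Ptgfrn (0.985) and Postn, the matrix protein of activated fibroblasts (0.983). Igfbp3 followed Hpgd (0.971), Srpx (0.956) and Ifitm2 (0.953), and Igfbp5 followed Ptgs1 (0.932), Il1r1 (0.916) and Srpx (0.908). Srpx was thus shared by these 2 binding protein genes. Igf1r followed Rae1 (0.977) and Terf2, which binds telomeres (0.976). Igf2r followed Ipo11 (0.910), Parp1, a DNA repair enzyme (0.905), and Zmym3 (0.903). Igfbp6 had the weaker likenesses of Sema3f (0.895), Adamtsl2 (0.870) and H2-Eb1 (0.869).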

How the data were processed

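RNA of 36 mouse heart libraries had been extracted with Trizol and sequenced on GA-2 or Hi-Seq instruments, per the labels' protocols. The deposited values are FPKM per gene made by the authors, and the submitters' processing notes name Bowtie 0.12.7, TopHat 1.3.2, Cufflinks 1.2.1, Cuffdiff and the build mm9. The annotation is not given in the sources used here. Cuffdiff can fail to estimate a gene, so an exact 0 may not be an absence: 6 genes were listed at 0 in at least 1 library and at 20 FPKM or more in all others. FPKM keep no read depth, so no counting interval can be given.

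Values were taken as log2(FPKM + 1). Genes with at least 1 FPKM in at least 2 libraries of a fit were tested with limma 3.58.1 (R 4.3.3), as group means with a variance trend, and p-values were adjusted by Benjamini-Hochberg over all genes of the fit. Isolated cells, ventricles and explants were fitted separately, and comparisons between preparations came from a fit over all 36 libraries. Intervals are 95%. Tables and figures used Python 3.11.15 with NumPy 2.4.6, pandas 2.3.3 and Matplotlib 3.10.9, and the fits were tested on simulated data. Each result was recomputed with quantile normalization, with libraries scaled by median-of-ratios, with 0.1 as the pseudocount, with no low-value filter, with a replicate block, in a single fit over all 36 libraries (for comparisons between preparations, the compared groups alone) and without each library in turn. In explants, same-numbered libraries deviated together in every pair of groups (r 0.385 to 0.617), which pairs them by the data and not by the labels. The pathway genes named are those called with the largest changes of each list, and the genes most like a member are the 3 with the highest r, and 2 genes that these rules name are not reported here. The members and lists were chosen with earlier results of these data known.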

Additional observations from a re-analysis of the deposited data

Results flagged for a closer look

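The following 4 differences between effects passed their test. In whole ventricle the resection effect at day 7 exceeded that at day 1 by 0.98 for Igf1r, by 1.21 for Igfbp3 and by 1.26 for Igfbp5, on the log2(FPKM + 1) scale. At day 7 the resection effect on Igfbp2 in isolated cells exceeded that in whole ventricle by 1.08. Each came from a test of the difference itself in limma. None was firm: the ventricle calls were each lost under 4 of the 6 other settings, and the Igfbp2 call under 2 of 6. Leaving out 1 library lost the calls of Igf1r and Igfbp5 for 5 of 8 libraries and that of Igfbp3 for 6 of 8. The Igfbp2 call was lost for 5 of 10.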

How the results depend on the processing

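Of 1192 alternative values of single members, 1005 kept their direction and their side of the threshold, many of them never called. For results called in the main fit, 142 values with 1 library left out stayed called and 59 did not. Under the other settings 209 stayed called, 47 did not and 2 turned round. With a pseudocount of 0.1, 1 gene was called in ventricle at day 7 after resection, and 0 members in the contrast of isolated cells with ventricle. Without the filter, genes called were 6 in isolated P4 against P0, 265 in isolated resection against sham, 75 in ventricle at day 7, 1057 in explants at 24 h and 124 in the contrast of isolated cells with ventricle. Members called were then 1 in ventricle at day 1, 0 in explants at 24 h and 0 in the contrast of day 7 with day 1. With the replicate block, 0 genes were called in isolated P4 against P0 and 4899 in explants at 24 h, and the block brought Igfbp3 past the threshold in isolated sham against P0 (adjusted p = 0.0379) and Igf1r in ventricle at day 1 (0.0494). It changed no other member call. Same-numbered libraries did not deviate together in isolated cells (r -0.58 to 0.421) or ventricles (-0.135 to 0.182).

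Under median-of-ratios scaling, genes called were 0 in isolated P4 against P0, 4199 in explants at 72 h, 1011 in isolated P0 against ventricle, 327 in the contrast of day 7 with day 1 and 49 in that of isolated cells with ventricle. Members called were 1 in ventricle at day 1, 1 in explants at 72 h and 0 in the contrast of day 7 with day 1. Log2 changes that turned round were those of Igfbp5 in isolated P4 against P0 (-0.0039), Igf2r in isolated resection against sham (-0.060), Igf1 in ventricle P7 against P0 (0.087), Igfbp5 in adults against P7 (0.19) and Igf2r in explants at 24 h (-0.20). At 72 h Igfbp4 (-0.58), Igfbp5 (-0.14) and Igfbp6 (-0.19) turned round. So did Igf1 (0.38) and Igfbp6 (0.013) in isolated P0 against ventricle, Igf2r (0.38) in explants against adult ventricle and Igf2r (-0.19) in the contrast of day 7 with day 1.

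With quantile normalization, genes called were 4 in isolated P4 against P0, 814 in ventricle at day 1, 14 in ventricle at day 7, 1024 and 4107 in explants at 24 and 72 h, 1045 in isolated P0 against ventricle, 2670 in explants against adult ventricle, 215 in the contrast of day 7 with day 1 and 43 in that of isolated cells with ventricle. Members called were 5 in isolated sham against P0, 1 in ventricle at day 1, 1 in explants at 72 h and 0 in the contrast of day 7 with day 1. Igfbp5 in isolated P4 against P0 (-0.041), Igf1 in ventricle P7 against P0 (0.12), and Igfbp4 (-0.56), Igfbp5 (-0.039) and Igfbp6 (-0.20) in explants at 72 h turned round. So did Igf1 (0.40) and Igfbp6 (0.11) in isolated P0 against ventricle, Igf2r (0.014) in explants against adult ventricle and Igf2r (-0.10) in the contrast of day 7 with day 1.

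In the single fit over all libraries, genes called were 12 in isolated P4 against P0, 679 in isolated resection against sham, 488 in ventricle P7 against P0, 3331 in adults against P7, 544 in ventricle at day 1, 4808 in explants at 24 h and 311 in the contrast of day 7 with day 1. Members called were 1, 4, 3, 3 and 0 in the first 5 of these, 5 in isolated sham against P0 and 0 in the contrast of day 7 with day 1. With the compared groups alone, 2841 genes were called in explants against adult ventricle, and 3 genes and 0 members in the contrast of isolated cells with ventricle. The cause of these shifts was not tested.

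Leaving out 1 library at a time gave these ranges. In isolated P4 against P0, 0 to 1 genes were called, and log2 changes ran from -0.094 to 0.14 for Igf1r, -0.46 to 0.14 for Igfbp3, -0.11 to 0.36 for Igfbp5 and -0.015 to 0.73 for Igfbp6. In isolated resection against sham, 1 to 3 members and 25 to 756 genes were called, with Igf1r at -0.027 to 0.40 and Igf2r at -0.048 to 0.35. In isolated sham against P0, 2 to 4 members and 925 to 4771 genes were called. In ventricle P7 against P0, 2 to 4 members and 584 to 1344 genes were called, with Igf1 at -0.30 to 0.20 and Igfbp4 at -0.22 to 0.42. In adults against P7, 3 to 4 members and 3712 to 4162 genes were called, with Igfbp2 at -0.064 to 0 and Igfbp5 at -0.44 to 0.21. In ventricle at day 1, 1 to 2 members and 225 to 3042 genes were called, with Igf2r at -0.15 to 0.20. In ventricle at day 7, 5 to 46 genes were called, with Igfbp6 at -0.30 to 0.60. In explants, 0 to 1 members and 56 to 261 genes were called at 24 h, with Igfbp5 at -0.41 to 0.0069 and Igfbp6 at -0.27 to 0.20, and 1 to 2 members at 72 h, with Igfbp4 at -0.079 to 0.081. In isolated P0 against ventricle, 5 to 7 members and 4485 to 8545 genes were called, with Igfbp2 at -0.075 to 0.49. In explants against adult ventricle, 2829 to 4816 genes were called, with Igfbp2 at 0 to 0.034. The contrast of day 7 with day 1 called 0 to 4 members and 192 to 2675 genes. That of isolated cells with ventricle called 0 to 1 members and 5 to 201 genes, with Igf2r at -0.25 to 0.15 and Igfbp4 at -0.30 to 0.29. FPKM keep no depth, so what depth limits could not be measured, and 2 or 3 libraries a group limit the precision.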
